A study of Mus musculus with 12 samples.

Results

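Potassium channel genes were taken as every gene whose symbol begins with Kcn and a further letter and whose locus carried the status OK, the mark of the authors' program for a locus with enough reads to be tested. This gave 78 genes of the 16077 named genes with that status at any time point, and 72 of them were listed at all 3 time points (77 for 2 h, 75 for 24 h, 74 for 7 d). By protein family they held 27 voltage-gated subunits, 8 modifier subunits, 12 inward rectifiers, 9 two-pore channels, 7 calcium- or sodium-activated subunits, 11 auxiliary subunits and 4 noncoding transcripts named after a channel gene.

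The RNA came from the prefrontal cortex of male C57BL/6 mice (C57BL/6 J in the study's methods), 10 weeks of age in the labels, excised 2 h, 24 h or 7 d after the final one of repeated daily injections of cocaine or of saline. The 6 groups had 2 libraries apiece, made from tissue of 5 animals per library, so that single animals were not resolved. The values used were the authors' pooled FPKM (fragments scaled by transcript length and by the fragments mapped), 1 value per group, and therefore no replicate error could be given, no test could be run, and every difference given here is a description of pooled libraries, for which the tables give no depth. Markers of excitatory neurons summed to 1347 to 1601 FPKM and those of striatal neurons to 49.5 to 60.5 FPKM over the groups, and no olfactory bulb marker had the status OK. Ppp1r1b set most of the striatal sum (46.4 to 57.7 FPKM), while Adora2a and Rgs9 lay between 0.805 and 2.41 FPKM. In the tables the groups are named C_2H and 2H and so on, and since C-2h stands for cocaine in the sample descriptions these names are ambiguous. Every direction given here rests on taking the first value as saline and the second as cocaine, in the order of the study's own tables. The 3 time points were scaled in separate tables, each with its own saline group, so levels set across them carry that limit as well.

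Potassium channels let potassium leave the cell and thereby set the resting potential, end the action potential and limit repetitive firing. Voltage-gated subunits open on depolarization, and modifier subunits (Kv5, Kv6, Kv8 and Kv9) give no current alone but join Kv2 subunits into mixed channels. Inward rectifiers and two-pore channels act near rest, calcium- and sodium-activated channels follow firing, and auxiliary subunits such as the KChIP, Kv beta and BK beta proteins change the gating and the surface number of the pore-forming subunits. In the prefrontal cortex these channels are known for shaping the excitability of pyramidal neurons.

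Channel genes spanned a wide range of levels (the plot of levels by class). Kcnab2, the Kv beta 2 subunit, had the highest mean over the groups, 106 FPKM, followed by Kcnj4 (Kir2.3) at 68.0, Kcnh3 (an ether-a-go-go type subunit) at 59.4, Kcnma1 (the BK channel) at 49.3 and Kcnip2 (KChIP2) at 47.1 FPKM. Among two-pore channels Kcnk1 (TWIK-1) was highest at 44.3 FPKM, and among modifier subunits Kcnv1 (Kv8.1) at 31.5 FPKM. At the low end Kcnq1 had 0.548 FPKM under saline and 0.238 under cocaine at 2 h and was not a member at the other time points. A mean of at least 1 FPKM over the saline and cocaine groups was reached by 69 members at 2 h, 69 after 24 h and 68 at 7 d, and the counts that follow are over these. A further 22, 22 and 23 loci with such names had too few reads to be tested at the 3 time points, none of them above 0.478 FPKM. Loci on which the authors' program failed were left out, namely Kcnma1 and Kcnh5 after 24 h and Kcnt1 and both loci of Kcnh7 at 7 d.

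**Figure D1:**
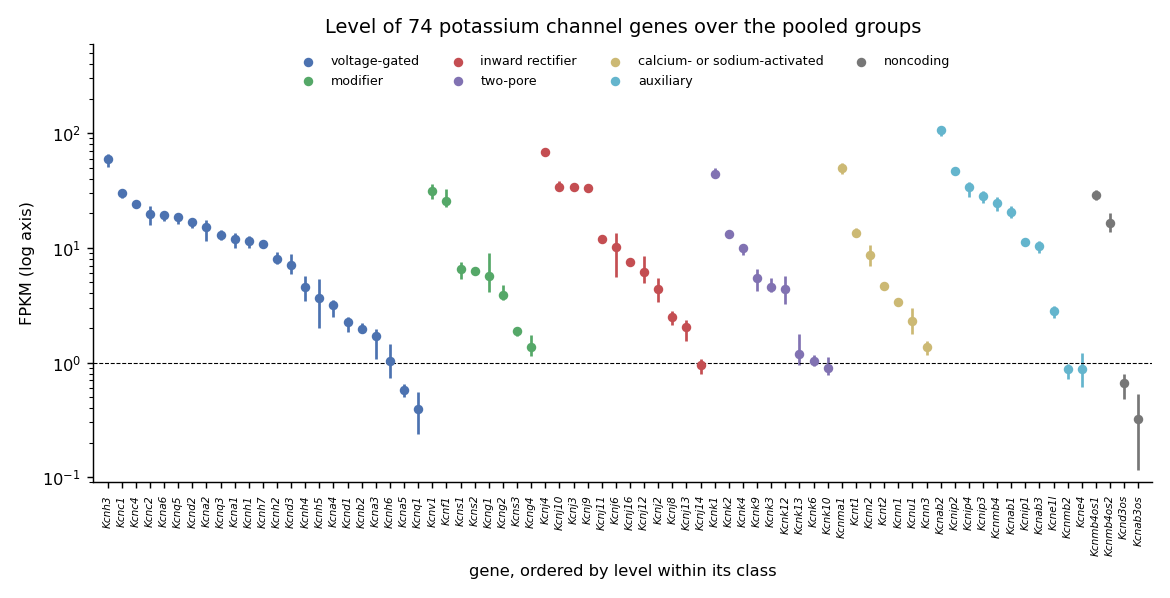
Mean FPKM over the groups (points, log axis) and the lowest to highest pooled group value (lines) for 74 of the genes, ordered by level within each class; the dashed line marks 1 FPKM. Kcnab2 lies at the top with 106 FPKM, and every class holds genes both above 1 FPKM and, except for the modifier and calcium- or sodium-activated subunits, at least 1 gene with a mean below it.

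Few channel genes differed by a large factor between cocaine and saline, and without regard to transcript length the share was below that of all loci at each time point. With the length trend described further on taken out, the set compared also changed, from all loci to genes with a known length. In that set the share of members was above that of genes at 2 h (4 of 67, 5.97%, against 3.55%). The same held at 7 d (2 of 66, 3.03%, against 1.85%). Counts of 4 and 2 genes are too small to set the members apart from other genes. At 24 h it was 0 of 67 against 1.54% of genes with a length, beside 4.23% of all loci. How much of the shift came from the change of set was not tested. Differences are given as the log2 ratio of cocaine to saline after 1 was added to each FPKM, which understates the change of low genes, and a gene was counted when the ratio passed 1.3-fold. At 2 h 3 of 69 members passed, Kcng1 and Kcnj12 higher and Kcnj2 lower in cocaine, against 6.03% of the 13600 loci compared (3.67% higher and 2.36% lower). At 24 h 0 of 69 passed, against 4.23% of 13822 loci (2.23% higher and 2% lower). At 7 d 1 of 68 passed, Kcna3, higher in cocaine, against 6.3% of 13674 loci (2.14% higher and 4.15% lower). On this scale 0 members passed 1.5-fold at the 3 time points, against 2.86%, 2.48% and 3.01% of loci, and the added 1 FPKM bears on this, since the ratios of the FPKM themselves were 1.53 for Kcng1 and 0.615 for Kcnj2 at 2 h and 1.72 for Kcna3 at 7 d. With the length trend taken out Kcnj2 passed 1.5-fold at 2 h, against 0.955% of genes, and 0 members did later, against 0.395% and 0.399%. At a lower bar of 1.2-fold 7 members passed at 2 h, 4 after 24 h and 6 at 7 d, against 12.8%, 7.91% and 14.5% of loci.

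**Figure D2:**
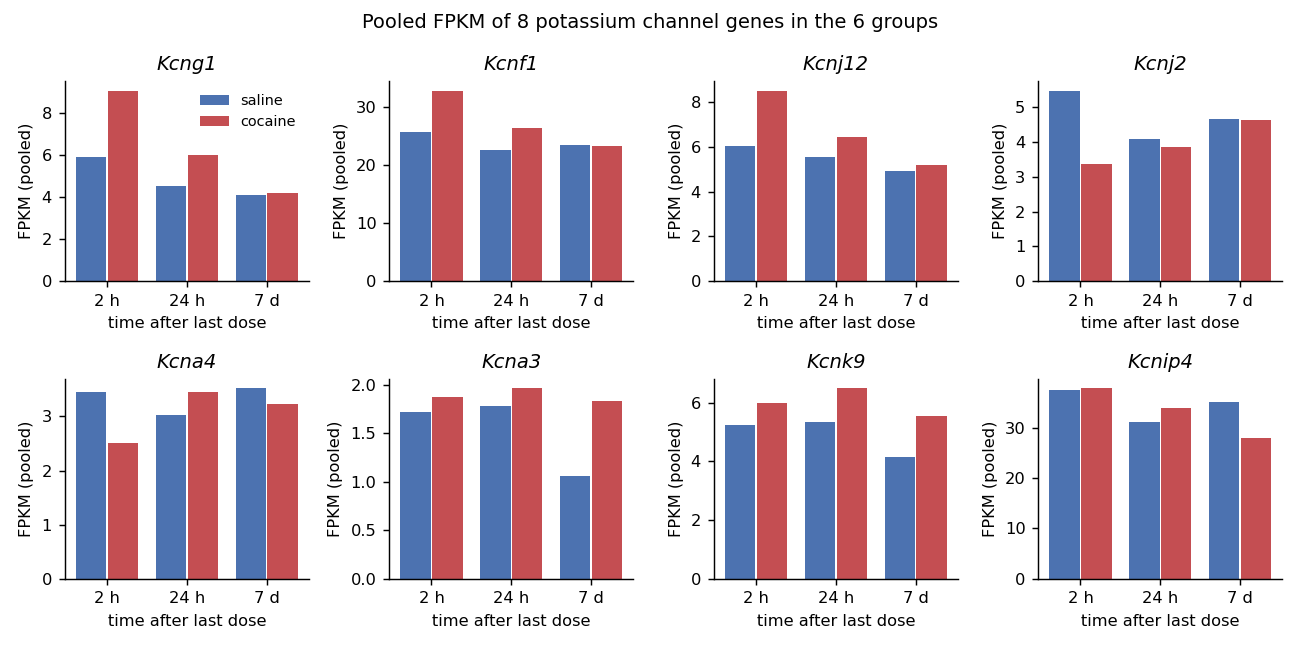
Pooled FPKM in the saline (blue) and cocaine (red) group at each time point for 8 genes, each bar being 1 pooled value without an error. Kcng1 and Kcnj12 stand higher and Kcnj2 lower in cocaine at 2 h, and the Kcna3 bars differ most at 7 d.

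The members past 1.3-fold at 2 h were a modifier subunit, Kcng1, and a pair of Kir2 inward rectifiers. Kcng1 encodes Kv6.1, a silent subunit that joins Kv2 channels (chr2:168260111-168283207, GRCm38). It had 5.95 FPKM under saline and 9.09 under cocaine at 2 h, 4.52 and 6.01 after 24 h, and 4.11 and 4.20 at 7 d, that is log2 differences of 0.54, 0.34 and 0.03. Its cocaine value at 2 h was the highest of its 6 values, and the difference was smaller at each later time point. Kcnf1 (Kv5.1, chr12:17172100-17176888), another silent partner of Kv2, had 25.6 FPKM under saline and 32.8 under cocaine at 2 h, 22.5 and 26.3 after 24 h, and 23.5 and 23.2 at 7 d. Its log2 differences of 0.34, 0.21 and −0.01 took the same order over time and did not pass 1.3-fold. Other modifiers went the opposite way at 2 h, since Kcnv1 (Kv8.1) had 30.6 FPKM under saline and 26.4 under cocaine (log2 −0.21) and Kcng2 (Kv6.2) had 4.34 and 3.48 (−0.25). Kcng2 was 3.67 in saline and 4.75 in cocaine after 24 h (0.30). The Kv9 subunits Kcns1 and Kcns3 were higher in cocaine at all 3 time points by at most 0.14, and Kcns2 differed by 0.01, −0.17 and 0.06. Kcng4 (Kv6.4) differed by 0.00, −0.26 and 0.15 at 1.14 to 1.73 FPKM. As a class the 8 modifiers had medians of 0.01, 0.07 and 0.02. Of them 5, 6 and 6 were higher in cocaine, beside 56.2%, 53.0% and 47.4% of all loci. With the length trend taken out 3, 5 and 5 were above 0, with medians of −0.02, 0.06 and 0.02.

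Kcnj2 and Kcnj12 encode Kir2.1 and Kir2.2, closely related strong inward rectifiers that hold neurons near rest, and in these libraries they lay in opposite directions at 2 h. Kcnj2 (chr11:111066164-111076821) had 5.48 FPKM under saline and 3.37 under cocaine at 2 h (−0.57), 4.08 and 3.87 after 24 h (−0.06), and 4.67 and 4.63 at 7 d (−0.01). Its cocaine value at 2 h was the lowest and its saline value at 2 h the highest of the 6, so both groups of that time point lay apart from the later ones. Kcnj12 (chr11:61022198-61073261) had 6.07 FPKM under saline and 8.53 under cocaine at 2 h (0.43), 5.58 and 6.47 after 24 h (0.18), and 4.91 and 5.20 at 7 d (0.07). It was higher in cocaine at each time point, with the difference shrinking over time. The most abundant Kir2 gene, Kcnj4 (Kir2.3), stayed between 64.7 and 72.8 FPKM over all 6 groups (−0.08, 0.11 and −0.03), and Kcnj14 (Kir2.4) was near 1 FPKM.

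Because Kir2 genes differed in direction, the sequence upstream of their starts is shown for the 3 genes that RefSeq promoter entries on GRCm38.p6 cover. The entries run from 250 bases before a start to 50 after it, and the 250 bases before the start are printed 5′ to 3′ on the strand of the gene, at chr11:111065914-111066163 (plus strand) for Kcnj2, chr11:61065554-61065803 (plus strand, a start inside the gene) for Kcnj12 and chr15:79505242-79505491 (minus strand) for Kcnj4. Capitals mark matches to any of 5 motifs searched on both strands.
Kcnj2: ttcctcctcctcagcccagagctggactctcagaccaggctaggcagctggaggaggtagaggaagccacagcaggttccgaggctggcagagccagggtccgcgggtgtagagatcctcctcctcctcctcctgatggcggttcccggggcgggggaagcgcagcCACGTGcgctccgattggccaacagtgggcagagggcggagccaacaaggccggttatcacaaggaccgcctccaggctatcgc
Kcnj12: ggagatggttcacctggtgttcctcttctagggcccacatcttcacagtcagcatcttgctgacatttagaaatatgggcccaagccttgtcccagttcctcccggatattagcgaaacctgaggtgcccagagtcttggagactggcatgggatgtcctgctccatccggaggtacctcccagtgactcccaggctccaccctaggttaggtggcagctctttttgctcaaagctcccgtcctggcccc
Kcnj4: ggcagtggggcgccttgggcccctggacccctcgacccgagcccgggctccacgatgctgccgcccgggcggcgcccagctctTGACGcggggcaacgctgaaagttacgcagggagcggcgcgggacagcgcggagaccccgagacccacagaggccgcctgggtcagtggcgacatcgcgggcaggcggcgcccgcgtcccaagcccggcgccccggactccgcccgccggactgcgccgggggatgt
The motifs were the cyclic AMP response element TGACGTCA, its core TGACG, which lies within it, the AP-1 site TGACTCA, the Egr site GCGTGGGCG and the E-box CACGTG. Kcnj2 held 1 E-box, beginning 84 bases before the start, Kcnj4 held 1 TGACG core, beginning 167 bases before it, and in the Kcnj12 window none of these letter strings was found. Over all 32851 RefSeq promoter entries 7.15% held the E-box, 20.8% the TGACG core, 5.20% the AP-1 site, 1.79% the full element and 0.612% the Egr site. Among the 76 entries of 53 member genes the shares were 6.58%, 17.1%, 2.63%, 0% and 0%. These are matches of letters and no more.

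Other inward rectifiers showed smaller differences. The G protein-gated subunits Kcnj3, Kcnj6 and Kcnj9 (GIRK1, GIRK2 and GIRK3), which carry the slow inhibition through GABA-B and other receptors, ranged from −0.13 to 0.16. Kcnj3 had 35.4 FPKM under saline and 32.2 under cocaine at 2 h, 32.9 and 36.0 after 24 h, and 33.7 and 32.9 at 7 d, without a common direction. Kcnj6 was slightly higher in cocaine each time (0.16, 0.07 and 0.12), while its level in both groups was lower in the 7 d table (5.57 and 6.16 FPKM) than in the 2 h table (11.99 and 13.5). Kcnj11, the pore of neuronal ATP-sensitive channels, went from 12.7 to 10.9 FPKM between saline and cocaine at 2 h (−0.20), 12.8 to 12.04 after 24 h (−0.08) and 11.3 to 12.3 at 7 d (0.11). Kcnj8, the pore of the vascular form, was 2.14 to 2.82 FPKM and lower in cocaine at all 3 time points (−0.04, −0.18 and −0.12). Endothelial markers, summed, differed by 0.14, −0.06 and 0.16 and mural cell markers by −0.01, −0.06 and 0.11, and their part was not tested.

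Kcnj10 (Kir4.1) and Kcnj16 (Kir5.1) form the main potassium-uptake channel of astrocytes. Kcnj10 had 33.0 FPKM under saline and 34.2 under cocaine at 2 h (0.05), 37.9 and 32.2 after 24 h (−0.23), and 31.5 and 35.6 at 7 d (0.17). Kcnj16 differed by −0.06, −0.19 and 0.13, opposite to Kcnj10 at 2 h and on the same side later. Oligodendrocyte markers, summed, differed by −0.09, −0.29 and −0.03. The summed level of the 3 astrocyte markers had log2 differences of 0.14 (3 of 3 higher in cocaine), −0.16 (0 of 3) and 0.15 (3 of 3), on the same side as Kcnj10 throughout and as Kcnj16 at the later time points but not at 2 h, and its part in the differences was not tested. In bulk tissue fewer cells of a type and less RNA per cell cannot be told apart. Kcnj13 (Kir7.1), known from the choroid plexus, was at 1.54 to 2.34 FPKM and higher in cocaine by 0.20, 0.05 and 0.06. The choroid plexus marker Ttr, the 1 of 3 such markers with a mean of 1 FPKM or more, had 1.90 and 0.461 FPKM in saline and cocaine at 2 h, 1.80 and 1.10 after 24 h, and 0.284 and 6.54 at 7 d, so that Ttr and Kcnj13 lay in opposite directions at 2 h and 24 h. The Kcnj13 locus also lies across the gene Gigyf2.

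Voltage-gated subunits differed little at 2 h and leaned to higher values in cocaine at the later time points. At 7 d their median fell from 0.11 to 0.03 when the length trend was taken out. After that step 17 of 23 were above 0, beside 5634 of the 11274 genes with a length. The median log2 difference over those at 1 FPKM or more was 0.00 at 2 h (13 of 24 higher), 0.09 after 24 h (20 of 24 higher) and 0.11 at 7 d (20 of 23 higher), against medians of 0.02, 0.01 and −0.01 over all loci, of which 56.2%, 53.0% and 47.4% were higher in cocaine. Kcnh3 was higher at each time point, with 54.8 FPKM under saline and 64.8 under cocaine at 2 h (0.24), 63.2 and 66.3 after 24 h (0.07), and 50.2 and 57.1 at 7 d (0.18). Kcnc1 (Kv3.1), which allows fast spiking, had 31.4 and 29.9 FPKM at 2 h (−0.07), 31.7 and 31.2 after 24 h (−0.02), and 27.1 and 30.7 at 7 d (0.18). For comparison, the summed level of inhibitory neuron markers differed by 0.00, 0.02 and 0.01 and that of excitatory neuron markers by 0.11 (3 of 3 higher), −0.06 (2 of 3) and 0.17 (2 of 3), and their part in these differences was not tested. Camk2a, the most abundant of the latter, set most of their sum, while Neurod6 went from 37.2 to 28.1 FPKM between saline and cocaine at 7 d (−0.39). Of the 22 voltage-gated genes at the minimum level at all 3 time points, 9 (40.9%) were higher in cocaine each time, against 18.9% of 12707 genes, and 0 lower each time, against 14.5%. With the length trend taken out 6 of the 22 were higher each time, against 16.6% of genes. At both 24 h and 7 d 15 (68.2%) were higher, against 26.1% of genes. The other pairs had 9 (40.9% against 31.9%) for 2 h and 24 h, and 12 (54.5% against 32.8%) for 2 h and 7 d. Length was not taken out for these pairs. The potassium channel genes Kcna2, Kcna6, Kcnb2, Kcnc2, Kcnc4, Kcnd3, Kcnh1, Kcnh2, Kcnh4, Kcnh5, Kcnh7, Kcnq3 and Kcnq5 lay between −0.14 and 0.23 wherever they were members, and Kcnh6 stayed below 1.5 FPKM.

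Among the A-type channels, which give the fast transient current, Kcna4 (Kv1.4, chr2:107290639-107298502) had 3.46 FPKM under saline and 2.50 under cocaine at 2 h (−0.35), 3.03 and 3.45 after 24 h (0.14), and 3.52 and 3.24 at 7 d (−0.09). Kcnd2 (Kv4.2) differed by 0.07, 0.05 and 0.03 with 15.0 to 18.1 FPKM. Kcnd1 (Kv4.1) was lower by 0.06 at 2 h and higher by 0.28 and 0.21 later, at 1.86 to 2.50 FPKM. The 1 member past 1.3-fold at 7 d, Kcna3 (Kv1.3), was among the least abundant of these genes, with 1.72 FPKM under saline and 1.88 under cocaine at 2 h (0.08), 1.79 and 1.97 after 24 h (0.09), and 1.07 and 1.83 at 7 d (0.46). Its saline value at 7 d was the lowest of the 6, while its 3 cocaine values lay between 1.83 and 1.97. The Kcna3 locus in the tables is 164020 bases long (chr3:106934382-107098401) whereas the RefSeq gene is 1968 bases, and it runs into Kcna2. Kcna1 and Kcna5 likewise share 1 locus, and their differences stayed within 0.19.

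**Figure D3:**
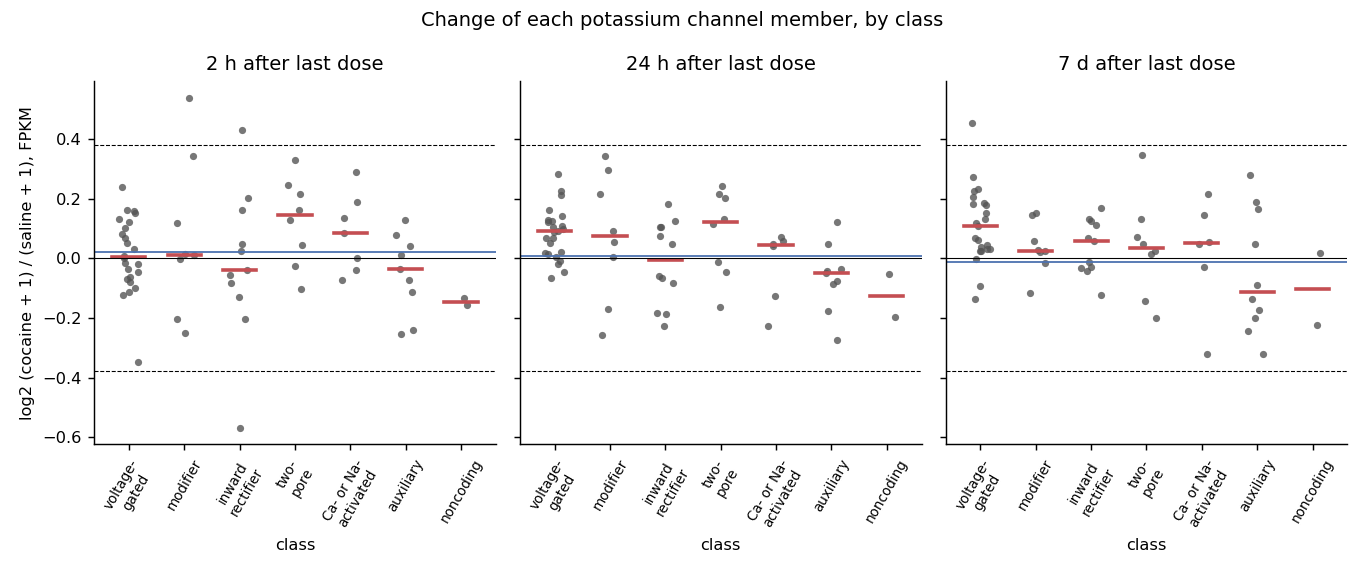
Log2 ratio of cocaine to saline (pooled FPKM plus 1) for each member with a mean of at least 1 FPKM, by class and time point. Red bars are class medians, the blue line the median of all loci, and dashed lines 1.3-fold; at 7 d the voltage-gated median (0.11) lies above and the auxiliary median (−0.11) below the line of all loci, and with the length trend taken out these medians are 0.03 and −0.03.

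Two-pore channels, the background leak channels, had class medians above 0 at all 3 time points. Their medians were 0.14 at 2 h (6 of 8 higher), 0.12 after 24 h (5 of 8) and 0.04 at 7 d (6 of 8). Of all loci 56.2%, 53.0% and 47.4% were higher. The acid-sensitive TASK channels lay on the same side throughout, since Kcnk3 (TASK-1) was higher by 0.22, 0.21 and 0.05 and Kcnk9 (TASK-3, chr15:72501879-72550555) by 0.16, 0.24 and 0.35. Kcnk9 had 5.26 FPKM under saline and 6.00 under cocaine at 2 h, 5.33 and 6.50 after 24 h, and 4.17 and 5.57 at 7 d. Its cocaine value was above all 3 saline values at each time point, as was also so for Kcna3 and Kcnn3. For Kcnn3 the gap was narrow at 7 d (1.400 FPKM under cocaine against a highest saline value of 1.396). Of all genes 30.3%, 28.8% and 13.6% lay above all 3 saline values at 2 h, 24 h and 7 d. The share of all genes above throughout was not counted. Kcnk13 (THIK-1), a channel of microglia, had 1.21 and 1.78 FPKM at 2 h (0.33) and differed by 0.12 and 0.02 later. The microglial markers, summed, differed by 0.07, −0.09 and 0.11, and their part was not tested. The abundant Kcnk1 stayed between 41.5 and 49.4 FPKM (0.13, −0.05 and 0.01), and Kcnk2 (TREK-1) between 12.7 and 13.8 FPKM (−0.02, −0.01 and 0.07). Kcnk4 (TRAAK) was higher by 0.25 and 0.13 and then lower by 0.20, with a locus that it shares by name with Tex40. Kcnk12 (THIK-2) was higher by 0.05, 0.20 and 0.13, and Kcnk6 and Kcnk10 lay near 1 FPKM.

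Calcium- and sodium-activated channels showed no difference past 1.3-fold on the scale with 1 FPKM added. The BK pore Kcnma1, which speeds repolarization, had 54.6 FPKM under saline and 53.0 under cocaine at 2 h (−0.04) and 43.9 and 45.6 at 7 d (0.05). Kcnn2 (SK2), a small-conductance channel of the afterhyperpolarization, had 8.57 and 10.7 FPKM at 2 h (0.29), 8.31 and 8.78 after 24 h (0.07), and 6.97 and 8.25 at 7 d (0.21), higher in cocaine each time. Kcnn3 (SK3) was also higher each time, by 0.09, 0.04 and 0.14 at 1.17 to 1.54 FPKM. Kcnn1 (SK1) differed by 0.14, 0.06 and −0.03. The sodium-activated Kcnt1 differed by −0.07 at 2 h and −0.12 after 24 h, and its relative Kcnt2 by 0.00, 0.05 and 0.05. Kcnu1, a BK relative best known from sperm, differed by 0.19, −0.23 and −0.32, with 2.26 FPKM under saline and 1.79 under cocaine after 24 h.

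Auxiliary subunits had class medians below 0 at all 3 time points. They were −0.04 at 2 h (4 of 9 higher), −0.05 after 24 h (2 of 9) and −0.11 at 7 d (4 of 10). The shares of all loci that were higher were 56.2%, 53.0% and 47.4%. Kcnab1 (Kv beta 1), which lends fast inactivation to Kv1 channels, had 21.9 FPKM under saline and 18.3 under cocaine at 2 h (−0.24), 19.9 and 19.3 after 24 h (−0.05), and 23.3 and 19.5 at 7 d (−0.24). Kcnip3 (KChIP3, also the transcription factor DREAM) had 28.9 and 26.7 FPKM at 2 h (−0.11), 30.3 and 24.9 after 24 h (−0.27), and 31.1 and 26.9 at 7 d (−0.20). For Kcnab1, Kcnip3 and also Kcnip1 the cocaine value was below all 3 saline values at each time point. Of all genes 25.0%, 18.2% and 25.2% lay below all 3 saline values at 2 h, 24 h and 7 d. The share of all genes below throughout was not counted. Kcnip1 differed by −0.07, −0.08 and −0.14, and Kcnmb4 (the neuronal BK beta 4 subunit) by −0.04, −0.08 and −0.17. Of 9 auxiliary genes at the minimum level throughout, these 4 were lower in cocaine at all 3 time points and 0 were higher at all 3, while over 12707 genes 14.5% were lower and 18.9% higher each time. Over all 64 members measured throughout, 7 (10.9%) were lower and 22 (34.4%) higher each time. With the length trend taken out 7 of 62 (11.3%) were lower, against 16.5% of genes, and 17 (27.4%) higher, against 16.6%.

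Kcnip4 (KChIP4) differed mainly at 7 d, with 37.5 FPKM under saline and 37.8 under cocaine at 2 h (0.01), 31.1 and 33.9 after 24 h (0.12), and 35.1 and 27.9 at 7 d (−0.32). Its cocaine value at 7 d was the lowest of the 6. Kcnip2 went the other way at 7 d, with 44.1 FPKM under saline and 49.5 under cocaine (0.17), after 0.04 and −0.03 before. Kcnab2, the most abundant member, had 101 and 110 FPKM at 2 h (0.13), 113 and 110 after 24 h (−0.04), and 94.3 and 108 at 7 d (0.19), in a locus that also spans part of Nphp4. Kcne4 passed 1 FPKM at 7 d, with 0.823 in saline and 1.21 in cocaine (0.28), in a locus of 432889 bases. Kcnab3 (Kv beta 3) was lower at the first 2 time points and not at the last (−0.26, −0.18 and 0.05), Kcne1l differed by 0.08, 0.05 and −0.09, and Kcnmb2 stayed below 1 FPKM.

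The noncoding transcripts Kcnmb4os1 and Kcnmb4os2 share the locus of Kcnmb4, and in libraries made without strand information their reads and those of Kcnmb4 cannot be told apart. Kcnmb4os1 had 29.0 FPKM under saline and 26.4 under cocaine at 2 h, and differed by −0.05 after 24 h and 0.02 at 7 d. Kcnmb4os2 had 15.5 and 13.8 FPKM at 2 h (−0.16), 20.3 and 17.5 after 24 h (−0.20), and 17.6 and 14.9 at 7 d (−0.22), lower in cocaine each time, as Kcnmb4 was. Kcnd3os and Kcnab3os stayed below 1 FPKM.

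Proteins outside the Kcn names that join these channels were taken as 13 listed genes, of which 11, 11 and 12 reached 1 FPKM. At each time point 8 of them were higher in cocaine, beside 56.2%, 53.0% and 47.4% of all loci, with medians of 0.05, 0.04 and 0.05. These counts include the length trend. With it taken out Amigo1, Adam22 and Cntnap2 at 2 h and Lgi1 after 24 h fell below 0. So did Abcc8, Abcc9 and Adam22 at 7 d, and no partner turned the other way. None passed 1.3-fold, against 6.03%, 4.23% and 6.3% of loci. The Kv4 partners Dpp6 and Dpp10 were abundant, Dpp6 at 44.6 to 51.4 FPKM and higher by 0.05, 0.08 and 0.07, and Dpp10 at 45.8 to 52.2 FPKM with 0.06, 0.07 and −0.09. Amigo1, a partner of Kv2, was higher by 0.04, 0.04 and 0.17. Among the partners the difference furthest from 0 was that of the BK gamma subunit Lrrc55 at 2 h, with 3.04 FPKM under saline and 2.23 under cocaine (−0.33).

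Transcript length moved with the differences at 7 d. Over genes ranked by transcript length in 20 groups, the median log2 difference at 7 d ran from −0.21 in the shortest group to 0.12 in the longest, and after 24 h it stayed within a much narrower range (the plot of change against transcript length). Members had a median transcript of 3654 nt at 7 d against 3026 nt over all genes. With the median of genes of like length subtracted, the medians of the voltage-gated genes (0.03) and of the auxiliary genes (−0.03, 5 of 10 above 0) both lay nearer to 0 at 7 d. At 24 h 18 of 24 voltage-gated genes were above 0 after this step, with a median of 0.08, and at 2 h 11 of 24, with a median of −0.03. At 2 h 4 of 67 members then passed 1.3-fold, Kcna4 (−0.38) being added, against 3.55% of 11304 genes with a length, and at 24 h 0 of 67, against 1.54%. Kcnk9, with a transcript of 1209 nt, then had 0.46 at 7 d and passed 1.3-fold, as did Kcna3 at 0.52, against 1.85% of the 11274 genes with a length. Kcnip3, Kcnab1, Kcnip1 and Kcnmb4 stayed below 0 at all 3 time points with length taken out.

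**Figure D4:**
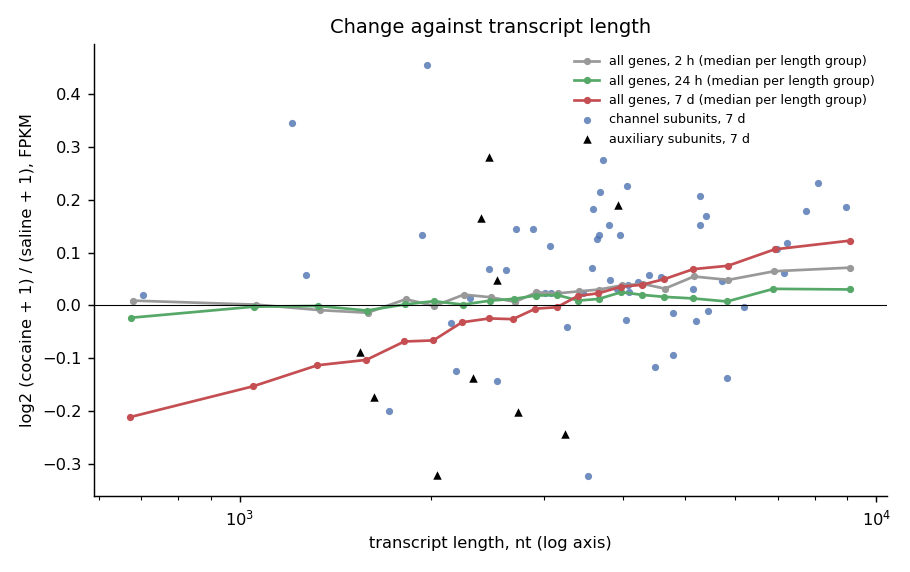
Median log2 ratio of cocaine to saline in 20 groups of genes by transcript length (lines, 1 per time point) and the single members at 7 d (points for channel subunits, triangles for auxiliary subunits), against transcript length in nucleotides on a log axis. The 7 d line runs from −0.21 to 0.12.

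The 3 saline groups gave a rough scale for differences between groups without cocaine, although they also differ in time and in scaling. The median member varied by 0.22 on the log2 scale between its highest and lowest saline value, against 0.19 over all genes. A cocaine to saline difference larger than the gene's own saline range was seen for 17 of 64 members at 2 h (24.8% of all genes), 16 after 24 h (16.8%) and 10 at 7 d (23.6%). Kcng1, Kcnj12 and Kcnj2 were among them at 2 h, Kcna3, Kcnk9 and Kcnip4 at 7 d, and Kcnip3 at each time point. These genes were named with the same differences already known, so their place here is no separate support. Each range also includes the saline value used in the difference. For Kcna3 the difference at 7 d (0.46) and the range (0.43) share the low saline value at 7 d.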

How the data were processed

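RNA of 12 prefrontal cortex libraries, 2 in each of 6 groups, was sequenced with paired ends. Per the submitters' processing notes the tools were CASAVA 1.8.2, Trimmomatic 0.32, TopHat2 2.0.12, Cufflinks 2.2.1 and Cuffdiff on GRCm38 (mm10); the methods of the study name mm9, but 99.9%, 99.7% and 99.9% of named loci overlapped their RefSeq gene on GRCm38.p6. The deposited tables, 1 per time point, hold an FPKM value per locus and group that the authors pooled over the 2 libraries. The authors' fold changes, test statistics, p-values and q-values are also in the tables and were not used, apart from the status that defines membership. The first value column was taken as saline and the second as cocaine, from the order in which the study presents its groups, because the group names inside the tables (C_2H, 2H) are ambiguous beside the sample descriptions, where C-2h is cocaine. Group assignment of the libraries followed the labels.

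All steps ran in pandas 2.3.3 and numpy 2.4.6 under Python 3.11.15, with matplotlib 3.10.9 for plots. For each name the longest locus was kept (ties by the higher mean FPKM), 1 was added to each FPKM, a mean of at least 1 FPKM over both groups of a time point was required, and a ratio past 1.3-fold was counted. No test was possible. The count and length steps were checked on simulated data. Locus starts were raised by 1 base to be 1-based. Each symbol took its length from GENCODE vM1 (its longest transcript that codes for protein), known for 97.1% of members, and promoters came from RefSeq. The genes named were those past 1.3-fold at any time point, the most abundant of each class, and others chosen after their values were seen. Some members enter the counts and medians but are not reported here by name. Members, classes, partner and marker lists were chosen with earlier results of these data known. Alternatives were a pseudocount of 0.1, no minimum level, folds of 1.2 and 1.5, centring on all loci, removal of the length trend, and another choice of locus. The tables hold no read counts or depth for the pooled FPKM, so no interval was given.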

Additional observations from a re-analysis of the deposited data

Results flagged for a closer look

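A further locus that carries the name of a member, and that the comparisons did not use, differed in 2 cases. At 7 d the second locus named Kcna2, at the same coordinates as the one used, had 4.08 FPKM under saline and 6.19 under cocaine (log2 0.50), while the locus used had 11.5 and 11.7, and the sum of both had 15.6 and 17.9 (log2 0.19). At 24 h the second locus named Kcnc1, also at the same coordinates, had 2.40 FPKM under saline and 3.90 under cocaine (log2 0.53), while the locus used had 31.7 and 31.2, and the sum of all loci of that name had 35.8 and 36.9 (log2 0.04). The tables used here hold no value per replicate for either.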

How the results depend on the processing

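The number of members past 1.3-fold moved with the settings. With a pseudocount of 0.1 it was 5, 3 and 4 for 2 h, 24 h and 7 d. The members added were Kcna4 and Kcnk13 at 2 h, Kcnd1, Kcng1 and Kcng4 at 24 h, and Kcne4, Kcnk9 and Kcnu1 at 7 d. The share of all loci was not counted with that pseudocount or without a minimum level, so counts at those settings cannot be set against it. With a fold of 1.5 it was 0 at 2 h and 0 at 7 d, and with a fold of 1.2 it was 7, 4 and 6. Without a minimum level it was 1 at 24 h (Kcnab3os, lower), and with the length trend removed 2 at 7 d (Kcna3 and Kcnk9). The median of the members at 2 h changed sign, to −0.011 after centring on all loci and to −0.0059 after removal of the length trend. Kcng1 at 24 h passed 1.3-fold with a pseudocount of 0.1 (0.40). Summing loci of the same name, an alternative chosen after seeing the data, turned Kcnc1 at 24 h from −0.02 to 0.04. A pooled value per group limits every statement, since no error between libraries is known. Leaving out a replicate was not run for the same reason. No paired analysis was possible because the tables hold 1 pooled value per group and no value per library.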
